A study of Bos taurus with 12 samples.

Results

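ACTB, GAPDH and YWHAZ, 3 genes commonly used as references in embryo expression work, were followed through 12 RNA-sequencing libraries of single cattle (Bos taurus) blastocysts. They were taken by Ensembl identifier (ENSBTAG00000026199, ENSBTAG00000014731 and ENSBTAG00000000236) from the 27607 genes of the unfiltered count table, and all 3 had reads in all 12 libraries. The blastocysts came from in vitro production and were day 7.5 embryos. CRISPR-Cas systems delivered by electroporation had removed exon 1 of OCT4 from 5 of them (edited embryos), and the other 7 were wild-type controls. No sex, sire, culture batch or sham electroporation of controls is given in the labels, so handling and genotype cannot be told apart. Each library came from part of the lysate of an embryo, after amplification of its cDNA. What the p-values measure is the spread between these libraries, amplification included.

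ACTB encodes beta-actin, the main building block of the cytoplasmic actin cytoskeleton, which shapes cells and their junctions in the trophectoderm of the blastocyst. GAPDH encodes glyceraldehyde-3-phosphate dehydrogenase, an enzyme of glycolysis, a pathway whose use changes as the embryo forms a blastocyst. YWHAZ encodes the zeta isoform of a family of adaptor proteins that bind phosphorylated serine and threonine on many signalling proteins. A reference gene is useful when its level per unit of RNA is the same in the groups compared, because the level of every other gene is then divided by it. OCT4, encoded by POU5F1, is a transcription factor of pluripotent cells. Its own count was not analysed here, because no table used here paired further identifiers with symbols.

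Libraries held 2762133 to 4781663 reads in wild-type embryos and 168974 to 3202922 in edited embryos, so depth went with the group. Edited embryo 2 stood apart as the shallowest library, and the main values are given with and without it. Edited embryos 4 and 5, with 1478796 and 778114 reads, were also below the wild-type range, and edited embryos 1 and 3 were within it. The share of reads from each gene is given as CPM (reads of the gene per 1000000 reads), either of all counted reads or scaled by TMM factors, which set libraries to the same level over the bulk of genes. CPM were not divided by transcript length, so levels are compared between embryos and not between genes.

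In wild-type embryos ACTB was very even. It had 7287, 7651, 7193, 7283, 6862, 7530 and 7260 TMM-scaled CPM in wild-type embryos 1 to 7, a mean of 7295 ± 252 CPM (SD, n = 7) and a coefficient of variation of 3.46%. The highest of these libraries was 1.12 times the lowest. Counting error alone, at 22326 to 35328 reads of ACTB, gave a coefficient of variation of 0.608%. On the scale of log2(CPM + 1), the SD of ACTB in wild type was 0.05, and 4 of 11926 tested genes had a lower one. The median SD of all tested genes was 0.36.

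In edited embryos ACTB was higher and less even. It had 9141, 8076, 8866, 12914 and 11088 TMM-scaled CPM in edited embryos 1 to 5, a mean of 10017 ± 1962 CPM (SD, n = 5). Every one of the 5 edited values exceeded the highest wild-type value, which was true of 0.738% of tested genes. Edited embryos 4 and 5, 2 of the shallow libraries, had the highest levels. As CPM of all counted reads the edited embryos had 9034, 7794, 8251, 10709 and 9193 CPM, against 7388 to 8083 CPM in wild type. On that scale 4 of 5 edited embryos were above the wild-type range and edited embryo 2 was inside it, with a 95% Wilson interval of 7386 to 8225 CPM for counting error.

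GAPDH was the gene of the 3 with the largest fitted rise. In wild-type embryos 1 to 7 it had 154.5, 194.3, 209.3, 241.2, 225.1, 193.3 and 207.9 TMM-scaled CPM, a mean of 203.6 ± 27.5 CPM (SD, n = 7). Its coefficient of variation was 13.5%, against 3.7% from counting alone, and the spread from amplification was not measured. In edited embryos 1 to 5 it had 262.9, 208.5, 325.9, 300.9 and 514.6 CPM, a mean of 322.6 ± 116.1 CPM (SD, n = 5). Edited embryos 1, 3, 4 and 5 were above every wild-type embryo, as in 3.31% of tested genes, and edited embryo 2 was within the wild-type range. The value in edited embryo 2 rested on 34 reads (201.2 CPM of all counted reads, Wilson 144 to 281.2). Edited embryo 5, with 332 reads, had the highest level.

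YWHAZ had no higher level in any edited embryo than in the highest wild-type embryo. Wild-type embryos 1 to 7 had 581.5, 573.3, 558.6, 701.1, 526.1, 703 and 686.5 TMM-scaled CPM, a mean of 618.6 ± 75.4 CPM (SD, n = 7) and a coefficient of variation of 12.2%. Counting alone gave 2.1%. Edited embryos 1, 3, 4 and 5 had 630.9, 596.2, 658.9 and 542.5 CPM, all within the wild-type range. Edited embryo 2 had 184 CPM, from 30 reads (177.5 CPM of all counted reads, Wilson 124.4 to 253.4), which is below every other library. Leaving it out, the edited mean was 607.1 ± 50.1 CPM (SD, n = 4). As CPM of all counted reads, edited embryos 2, 3, 4 and 5 were below the wild-type range of 566.5 to 750.7 CPM, with 177.5, 554.8, 546.4 and 449.8 CPM. The share of all genes with this pattern was not counted. On that scale the bulk of genes was lower too, with a median log2 fold change of -0.28 in the edgeR fit. Without edited embryo 2 that median was -0.25, and YWHAZ had -0.27.

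**Figure D1:**
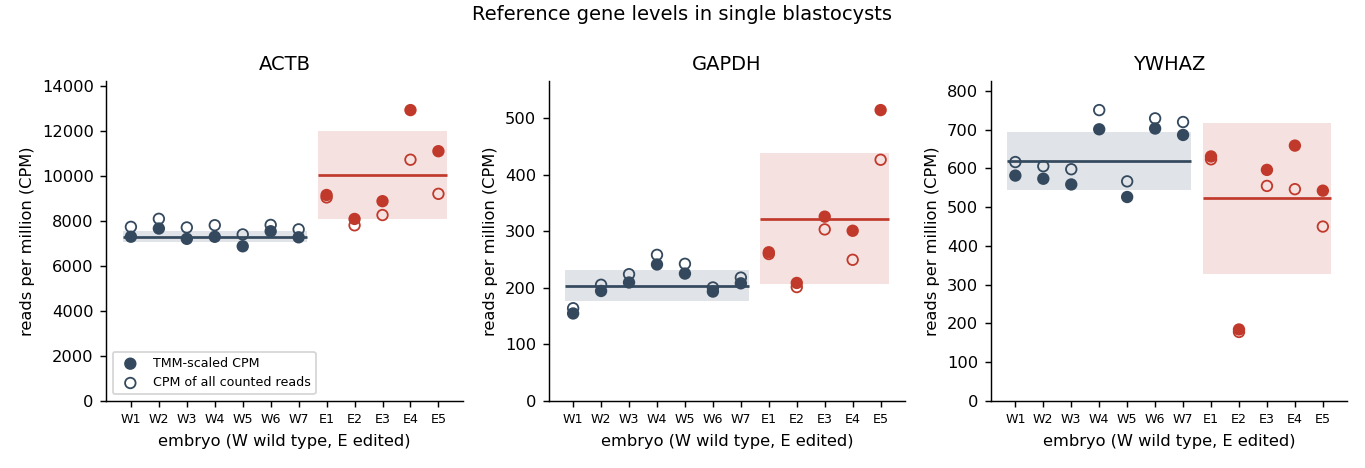
CPM (y axis, from 0) of ACTB, GAPDH and YWHAZ in each embryo, with filled points scaled by TMM and open points as CPM of all counted reads; lines and bands are the mean ± SD of the TMM-scaled values in 7 wild-type (W) and 5 edited (E) embryos. ACTB in wild type stays between 6862 and 7651 CPM with all filled edited points above, GAPDH is above 241.2 CPM in 4 of 5 edited embryos, and YWHAZ in edited embryo 2 sits alone at 184 CPM.

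The genotype difference was tested in 1 fit over the whole table. With TMM scaling over all 12 embryos, the log2 fold change of ACTB, edited over wild type, was 0.46 (SE 0.17, adjusted p = 0.214 by the edgeR quasi-likelihood test) and was higher than the wild-type median in 5 of 5 edited embryos. GAPDH had 0.67 (SE 0.23, edgeR adjusted p = 0.182), also with 5 of 5 edited embryos above the wild-type median. Edited embryo 2 was only just above it, at 208.5 against 207.9 CPM, and as CPM of all counted reads 4 of 5 were above. YWHAZ had -0.23 (SE 0.26, edgeR adjusted p = 0.704), with 3 of 5 above its wild-type median in TMM-scaled CPM. None of the 3 passed the threshold of 0.05, in a fit that called 3 of 11926 genes (0.0252%). The unadjusted p was 0.016 for ACTB and 0.0098 for GAPDH in that edgeR fit, where 7.43% of tested genes were higher at an unadjusted p under 0.05. DESeq2 called ACTB and GAPDH (adjusted p = 0.0115 and 0.0399) among 6.28% of genes. limma voom with quality weights called the same pair (adjusted p = 0.0429 and 0.0469) among 3.53% of genes. YWHAZ was called by neither.

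In the 11 embryos other than edited embryo 2, GAPDH rose by 0.76 on the log2 scale (SE 0.19, edgeR adjusted p = 0.0304), higher in 4 of 4 edited embryos, in a fit that called 5.3% of 12308 genes. ACTB had 0.51 (SE 0.14, edgeR adjusted p = 0.0511), just outside the threshold, and DESeq2 called it (adjusted p = 0.00165) among 12.7% of genes. YWHAZ had -0.04 (SE 0.14, edgeR adjusted p = 0.895). Leaving out 1 further embryo ended the call of GAPDH for edited embryo 5 (log2 fold change 0.53, edgeR adjusted p = 0.0595) and for wild-type embryos 1, 2, 3 and 7 (adjusted p = 0.0612, 0.052, 0.057 and 0.0567). It brought ACTB past the threshold without edited embryo 1 or 5 (edgeR adjusted p = 0.034 and 0.0475). With log2 library size as a covariate over all 12 embryos, the log2 fold changes of ACTB and GAPDH were 0.51 and 0.75 (edgeR adjusted p = 0.228 and 0.218) and that of YWHAZ turned to 0.25 (adjusted p = 0.683). With the wild-type embryos set against edited embryos 1 and 3 alone they were 0.3, 0.52 and -0.02 (edgeR adjusted p = 0.225, 0.145 and 0.962). With all 12 libraries thinned to 168974 reads they were 0.44, 0.66 and -0.14 (edgeR adjusted p = 0.294, 0.219 and 0.836).

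How large a difference remains possible was read from 95% intervals made by inverting the exact permutation test between genotypes. These intervals assume that the groups differ by a shift alone, with equal spread. The SD of ACTB was 0.27 in edited and 0.05 in wild-type embryos, so the intervals can be too narrow. The same limit holds for the ratio tests below, where the SD of ACTB to YWHAZ was 0.64 and 0.16. On the scale of log2(TMM-scaled CPM + 1), edited embryos had 1.35 times the wild-type level of ACTB (interval 1.17 to 1.59) and 1.52 times that of GAPDH (1.14 to 2.08). In the 11 embryos the ratios were 1.42 (1.22 to 1.65) and 1.68 (1.3 to 2.27). Over all 12 embryos the ratio for YWHAZ was 0.777 (interval 0.486 to 1.08). The interval for YWHAZ thus still holds a fall to 0.486 of the wild-type level over all 12 embryos, and without edited embryo 2 it was 0.839 to 1.14 around a ratio of 0.985. A p that misses the threshold is therefore no sign of stability over all 12 embryos. The interval of YWHAZ was narrow only with edited embryo 2 left out.

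The choice of size factor moved all 3 genes together. With library size as the only scaling, the log2 fold changes were 0.22 for ACTB, 0.42 for GAPDH and -0.46 for YWHAZ (edgeR adjusted p = 0.457, 0.318 and 0.333). That scaling also shifted the bulk of genes, whose median log2 fold change was -0.28, in place of -0.05 with TMM. Set against that median, GAPDH and ACTB stayed above the bulk of genes. RLE size factors gave 0.46, 0.67 and -0.25 (adjusted p = 0.183, 0.171 and 0.649) and upper quartile scaling 0.52, 0.71 and -0.22 (adjusted p = 0.139, 0.126 and 0.628), both close to TMM. In edited embryo 2 alone the factors were further apart, with an upper quartile factor 0.673 times the TMM factor. That factor sets every gene in edited embryo 2 at 1.49 times its level under TMM, relative to wild type. Under upper quartile scaling GAPDH was above the wild-type range in all 5 edited embryos, so the place of edited embryo 2 depends on the scaling. The share of all genes with this separation was not counted under that scaling. Under library size, RLE, upper quartile and TMM scaling alike, ACTB and GAPDH had positive and YWHAZ negative values. Scaled to GAPDH, ACTB turned to -0.14 (edgeR adjusted p = 0.681), where the median of all genes was -0.69 and ACTB again lay above it.

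The ratio of 2 genes within a library does not depend on any size factor. The ratio of ACTB to YWHAZ was higher in edited embryos. Its log2 value was 3.86, 5.43, 3.89, 4.29 and 4.35 in edited embryos 1 to 5, and 3.65, 3.74, 3.69, 3.38, 3.7, 3.42 and 3.4 in wild-type embryos 1 to 7, so the groups did not overlap. The difference was 0.8 (permutation interval 0.34 to 1.35), or 1.74-fold, and no other split of the embryos gave a difference as large (two-sided exact permutation p = 0.00126, the smallest this design allows). Without edited embryo 2 it was 0.53 (interval 0.21 to 0.81, exact permutation p = 0.00303, again the smallest possible), higher in 4 of 4 edited embryos. The share of all gene pairs whose ratio separates the groups in this way was not counted.

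The ratio of GAPDH to YWHAZ was also higher. Its log2 value was -1.26, 0.18, -0.87, -1.13 and -0.08 in edited embryos 1 to 5 and lay between -1.91 and -1.22 in wild type, so edited embryo 1 alone was inside the wild-type range. The difference was 0.97 (interval 0.41 to 1.58), or 1.96-fold (two-sided exact permutation p = 0.00253), and without edited embryo 2 it was 0.77 (interval 0.3 to 1.28, exact permutation p = 0.00606). The ratio of ACTB to GAPDH differed by -0.18 (interval -0.59 to 0.22, exact permutation p = 0.348), with 3 of 5 edited embryos inside the wild-type range, and that interval holds a fall as well as a rise. Leaving out edited embryo 2 gave -0.24 (interval -0.66 to 0.2, exact permutation p = 0.236). Over the 6 embryo-level tests, 3 of ratios and 3 of spread, the Benjamini-Hochberg adjusted p of both ratios to YWHAZ was 0.00758, and that of ACTB to GAPDH was 0.38. In the 11 embryos these were 0.0182 and 0.345. Against edited embryos 1 and 3 alone, the differences in the ratios of ACTB and GAPDH to YWHAZ were 0.31 and 0.54 (exact permutation p = 0.0556 for each, where 0.0278 is the smallest possible). These ratios show that the genes of a pair differed unequally, not which of them changed.

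**Figure D2:**
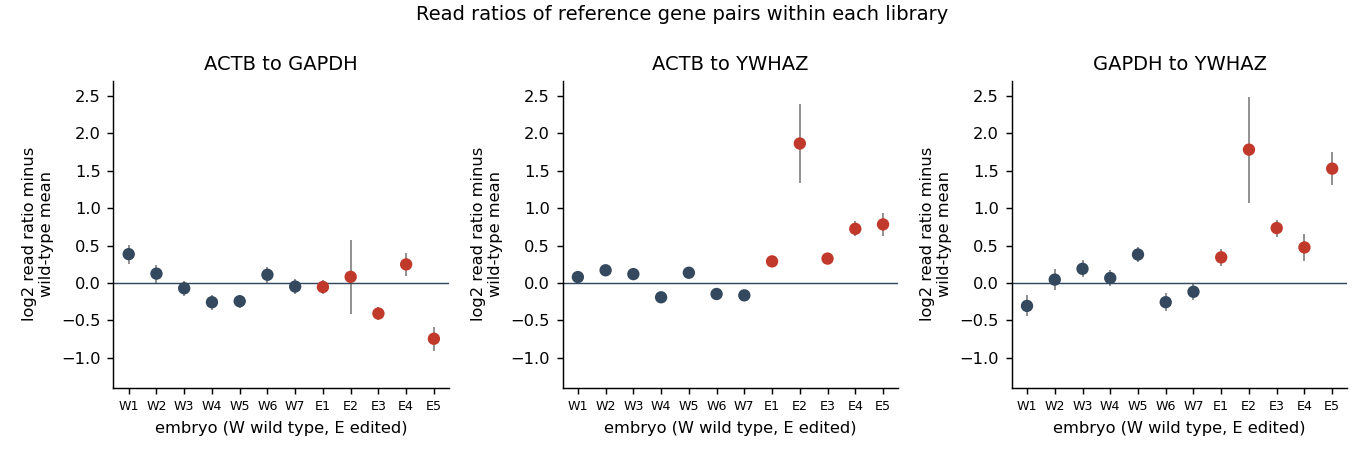
Log2 ratio of the reads of 2 reference genes in the same library, less its wild-type mean (y axis), in 7 wild-type (W) and 5 edited (E) embryos, with bars for the 95% counting error. Edited embryos lie above all wild-type embryos for ACTB to YWHAZ, 4 of 5 do for GAPDH to YWHAZ, and the groups overlap for ACTB to GAPDH. The share of other gene pairs with such patterns was not counted.

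The mean SD of a gene's log2 ratio to the other 2 is a common measure of reference gene stability, with low values for stable genes. In the 7 wild-type embryos it was 0.19 for ACTB, 0.2 for YWHAZ and 0.24 for GAPDH. Over all 12 embryos it was 0.44 for ACTB, 0.48 for GAPDH and 0.62 for YWHAZ, and without edited embryo 2 it was 0.32, 0.42 and 0.42. The value of YWHAZ was thus apart from the others only with edited embryo 2 included. With 3 genes, a shift shared by ACTB and GAPDH counts against YWHAZ in this measure.

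Over all 12 embryos the SD was larger in edited embryos in all 3 genes, and no difference in spread passed a test. Group means were not removed before labels were permuted, so a shift between groups widens the permuted SDs. The test can therefore miss a difference in spread, and no evenness is read from it. On the scale of log2(TMM-scaled CPM + 1), the SD of ACTB was 0.27 in edited and 0.05 in wild-type embryos (two-sided exact permutation p = 0.213), that of GAPDH 0.48 and 0.2 (exact permutation p = 0.38) and that of YWHAZ 0.77 and 0.18 (exact permutation p = 0.359). The highest adjusted p over the 6 embryo-level tests was 0.38. With edited embryo 2 left out, the SD of YWHAZ in edited embryos was 0.12, below that in wild type, while those of ACTB and GAPDH were 0.25 and 0.42 (exact permutation p of the difference from wild type 0.264, 0.288 and 0.697). With edited embryos 1 and 3 alone, the SD less that in wild type was -0.019 for ACTB, 0.015 for GAPDH and -0.12 for YWHAZ. Counting alone gave 0.13 for YWHAZ and 0.12 for GAPDH in the 5 edited embryos. Of 11926 tested genes, 17.3% had a lower SD over all 12 embryos than YWHAZ, 12.4% than GAPDH and 2.49% than ACTB. In the other 11 embryos these shares became 0.411%, 39.3% and 11.4%, so the order of the 3 genes turned with that library. In the 2059 genes at 100 CPM or more in wild type, counting error is smaller than in the bulk of genes. Near 100 CPM it is still larger than for YWHAZ. Among these 2059 genes, 1.46% had a lower SD than YWHAZ in the same 11 embryos, 28.5% than ACTB and 71.3% than GAPDH.

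As a size factor, each gene would rescale every other gene in an embryo. With the wild-type mean set to 1, factors from ACTB were 1.25, 1.11, 1.22, 1.77 and 1.52 times the TMM factor in edited embryos 1 to 5, and 0.941 to 1.05 times in wild type. Factors from GAPDH were 1.3, 1.03, 1.61, 1.49 and 2.55 times the TMM factor in edited embryos, and 0.765 to 1.19 times in wild type. Factors from YWHAZ were 1.03, 0.299, 0.97, 1.07 and 0.883 times the TMM factor in edited embryos, and 0.856 to 1.14 times in wild type. ACTB and GAPDH therefore lay above TMM in all 5 edited embryos, although GAPDH in edited embryo 2 was within its wild-type range. Library size, which uses no reference gene, also lay above TMM in all 5, at 1.07, 1.1, 1.14, 1.28 and 1.28 times the TMM factor. In edited embryo 2 the factor from ACTB was close to that from library size, and the factor from GAPDH was below it. YWHAZ was within its wild-type range in all but edited embryo 2. The 3 genes disagreed most with each other in edited embryo 2, where the factor from ACTB was 3.7 times that from YWHAZ, and in edited embryo 5, where GAPDH was 2.89 times YWHAZ. In wild type the highest factor was at most 1.31 times the lowest. The geometric mean of the 3 genes did not remove the difference, with 1.19, 0.7, 1.24, 1.41 and 1.51 times the TMM factor in edited embryos 1 to 5. Averaged over the edited embryos, this factor and that from library size were both 1.17 times the TMM factor.

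**Figure D3:**
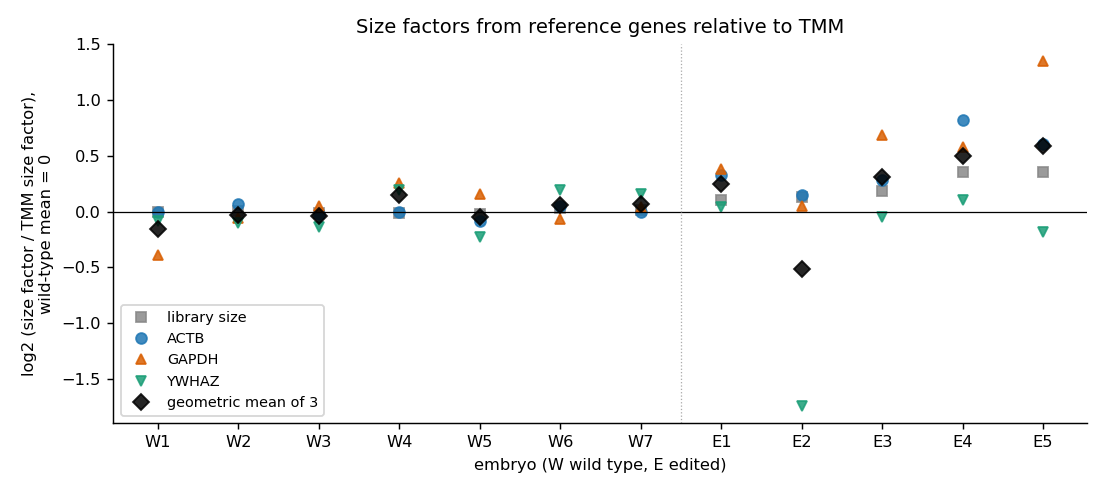
Log2 of the size factor from library size, from each reference gene or from the geometric mean of the 3, divided by the TMM factor (y axis, wild-type mean at 0), in 7 wild-type (W) and 5 edited (E) embryos. Library size, ACTB and GAPDH lie above 0 in all edited embryos, and YWHAZ lies near 0 except in edited embryo 2, at -1.74.

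Scaling the whole table to 1 gene changed the balance of higher and lower calls. Over all 12 embryos, TMM gave 3 genes higher and 0 lower in edited embryos (edgeR adjusted p under 0.05; at an unadjusted p 886 were higher and 915 lower, and DESeq2 called 328 higher and 421 lower). Scaling to ACTB gave 22 higher and 385 lower (3.41% of genes), scaling to GAPDH 30 higher and 1366 lower (11.7%), and scaling to YWHAZ 20 higher and 6 lower (0.218%). The geometric mean of the 3 gave 6 higher and 68 lower (0.62%). The median over all genes of the log2 fold change moved to -0.5 with ACTB, -0.69 with GAPDH, 0.15 with YWHAZ and -0.35 with the geometric mean. The 3 genes called with TMM remained called, in the same direction, under each of these 4 scalings.

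In the 11 embryos, TMM gave 451 genes higher and 201 lower, and scaling to YWHAZ 448 higher and 141 lower (4.79%), with a median log2 fold change of 0.00 over all genes against -0.03 with TMM. Of the TMM calls, 399 of 451 higher and 138 of 201 lower genes remained under scaling to YWHAZ. Scaling to ACTB gave 105 higher and 1799 lower (15.5%) and kept 105 of the 451, and scaling to GAPDH gave 57 higher and 3282 lower (27.1%) and kept 55. Both kept all 201 of the genes that were lower with TMM. Both scalings also moved the median fold change of all genes down, so the keeping of lower calls was nearly fixed in advance. Scaling to the geometric mean gave 140 higher and 1208 lower (11%). No gene called higher with TMM was called lower under any of these 4 scalings. Under scaling to ACTB or GAPDH, YWHAZ itself was then called lower in edited embryos (log2 fold change -0.52 and -0.72, edgeR adjusted p = 0.0424 and 0.0457), where the median of all genes was -0.49 and -0.72, so YWHAZ lay with the bulk of genes. With scaling to YWHAZ, GAPDH was called higher (0.82, edgeR adjusted p = 0.0419) and ACTB had 0.54 (adjusted p = 0.0681). With TMM scaling YWHAZ was not called in the same 11 embryos.

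**Figure D4:**
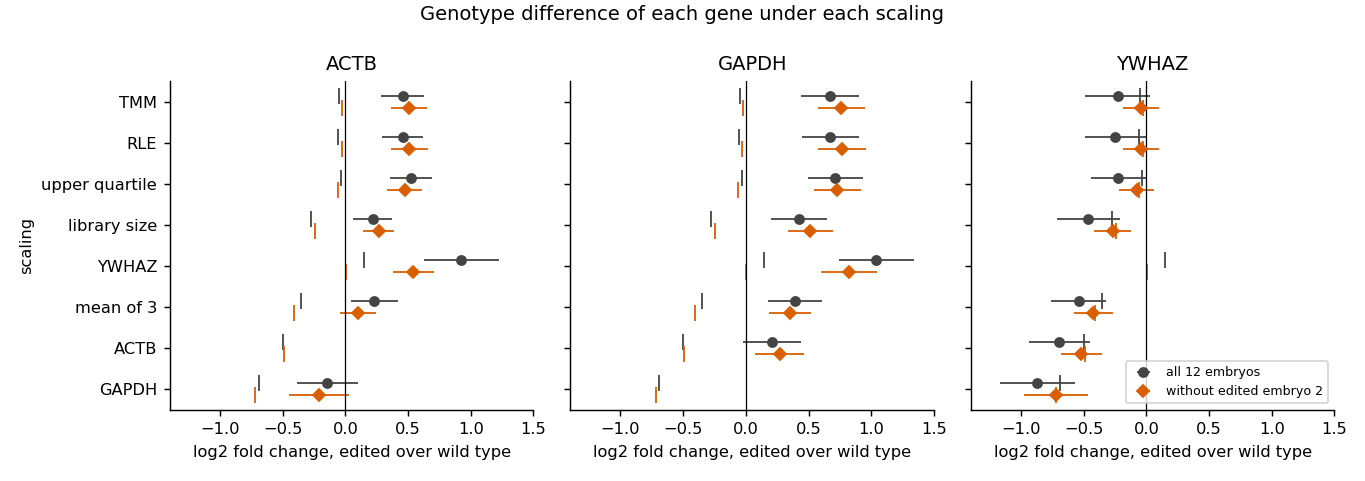
Log2 fold change, edited over wild type (x axis), of ACTB, GAPDH and YWHAZ in edgeR fits under 8 scalings (y axis), over all 12 embryos (circles) and without edited embryo 2 (diamonds); bars are ± SE, and vertical ticks mark the median of all tested genes. A gene has no point under scaling to itself. ACTB and GAPDH lie to the right of the median of all genes under each scaling shown, and YWHAZ lies near it without edited embryo 2.

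**Figure D5:**
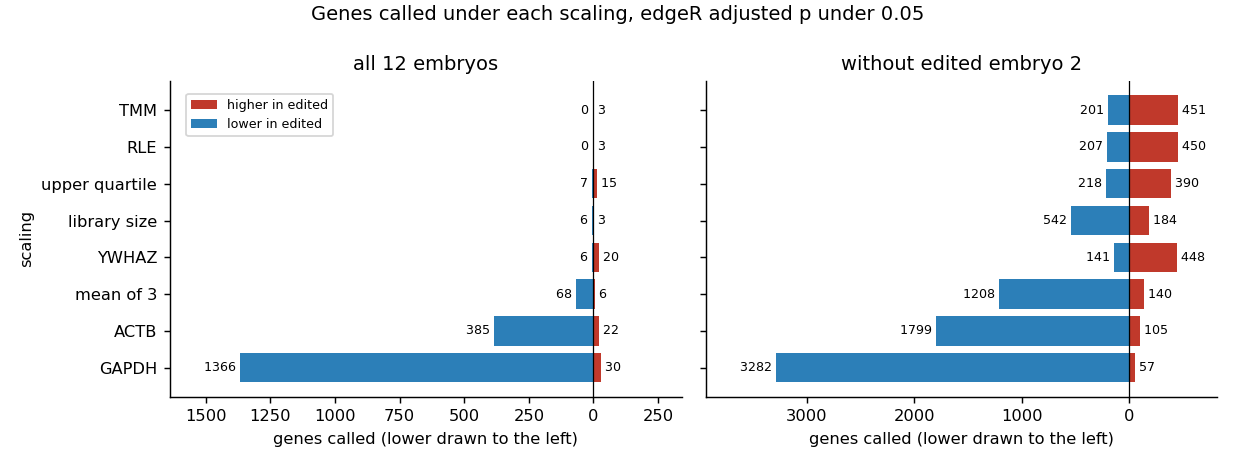
Number of genes called higher (right) or lower (left, drawn from 0) in edited embryos under each scaling (y axis), with edgeR adjusted p under 0.05; left panel all 12 embryos, right panel without edited embryo 2, each with its own x axis. Scaling to GAPDH gives 1366 and 3282 lower calls, whereas TMM gives 0 and 201.

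Genes with the most similar pattern were sought among 9412 other genes with a mean of 10 CPM or more, by Spearman correlation of log2(TMM-scaled CPM + 1) over the 12 embryos. These correlations describe libraries that share depth and amplification differences. ENSBTAG00000013867 and ENSBTAG00000003401 were most like ACTB (rho 0.94 and 0.92, and 0.94 and 0.9 without edited embryo 2). ENSBTAG00000008480 and ENSBTAG00000013971 were most like GAPDH (rho 0.92 and 0.89, and 0.98 and 0.95 without edited embryo 2). Their Pearson correlations with GAPDH were 0.46 and 0.34. ENSBTAG00000017969 and ENSBTAG00000003748 were most like YWHAZ (rho 0.96 and 0.94, and 0.95 and 0.92 without edited embryo 2), with Pearson correlations of 0.55 and 0.99. The first of these was scarce and uneven, at 2.9 ± 3.12 CPM in edited embryos (SD, n = 5) and 20.7 ± 35.6 CPM in wild type (SD, n = 7). None of these 6 genes passed the edgeR test between genotypes over all 12 embryos. Of them, ENSBTAG00000013867 came nearest, with 14.3 ± 3.34 CPM in wild type (SD, n = 7) and 40.8 ± 18.9 CPM in edited embryos (SD, n = 5; edgeR adjusted p = 0.0623).

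None of the 3 genes was even in both groups and free of a shift in every comparison. ACTB was the most even of the 3 within wild type but was higher relative to YWHAZ in edited embryos. With TMM scaling GAPDH had the largest log2 fold change, which was not shown to differ from that of ACTB. Under library size alone, with edited embryo 2 included, the log2 fold change of YWHAZ (-0.46) was larger in size than that of GAPDH (0.42). The median of all genes in that fit was -0.28, so part of the fall of YWHAZ was shared by the bulk of genes. Without edited embryo 2 the order turned under library size, with 0.51 for GAPDH and -0.27 for YWHAZ, where the median was -0.25. With scaling to GAPDH, most called genes were lower. YWHAZ came closest to TMM in the 11 embryos without edited embryo 2, and was furthest from it in that library, where 30 reads were counted. The part of depth and of library amplification in these differences was not tested beyond the covariate, the thinning and the left-out libraries.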

How the data were processed

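Per the submitters' processing notes, the tools were featureCounts 2.0.1, HISAT2 2.2.1 and SAMtools 1.17, on build ARS-UCD1.2 (bosTau9). Not given in the sources used here are the annotation release, the strand setting and any collapsing of molecules. The deposited values are raw counts of reads per gene, not normalised by the authors. Reads that ACTB or GAPDH share with related genes or processed copies could be assigned differently under other settings, so their levels are uncertain in that respect. All 12 columns were matched to samples by name (0 unmatched), and groups follow the genotype label. Over 66 pairs of libraries the chi-square of counts was at least 5.92 per degree of freedom, so no library was counted as a repeat of another.

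Tests used R 4.3.3 with edgeR 4.0.16 (TMM, filterByExpr, robust dispersions, glmQLFTest), Benjamini-Hochberg adjusted over all tested genes, two-sided. The edgeR fit was also run on simulated counts with the same dispersion for all genes and both groups. That setting does not cover the larger spread of the edited embryos. SE is the absolute log2 fold change divided by the square root of F. Ratios and spread were compared by exact permutation of the embryo labels over 792 splits, with 0.5 reads added for ratios and 1 CPM for spread, in Python 3.11.15 with scipy 1.17.1. Wilson intervals cover counting error only. Alternatives were other scalings, DESeq2 1.42.0, limma 3.58.1 voom, filters, a depth covariate, thinning to the smallest total and left-out embryos. A reference gene's own row was left out of the fit scaled to it. The named genes are the members and, for each, the 2 genes with the highest Spearman correlation among genes of at least 10 CPM. Planned lists of other reference, glycolysis and actin genes and cell type markers were not analysed here, since 0 identifiers matched a symbol in the RefSeq table of ARS-UCD2.0. The members and lists were chosen with earlier results of these data known.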

Additional observations from a re-analysis of the deposited data

Results flagged for a closer look

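YWHAZ in edited embryo 2, at 184 TMM-scaled CPM, stood apart from the other edited embryos. The distance to its nearest neighbour made up 0.755 of the whole range among the 5, more than the critical 0.71. It was the 1 value singled out in 12 groups of values tested, where chance singles out about 1 group in 20. A single flag over 12 groups can therefore arise by chance. The groups of ratios also reuse the counts of the groups of CPM. The count behind it was 30 reads in a library of 168974.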

How the results depend on the processing

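All alternatives to the results without edited embryo 2 were chosen after seeing the data. The causes of the changes below were not tested. The 3 genes called with TMM became 22 under upper quartile scaling, 9 under library size alone, 407, 1396, 26 and 74 under scaling to ACTB, GAPDH, YWHAZ and their geometric mean, 749 with DESeq2, 421 with voom and quality weights, 40 with no filter, 33 with log2 library size as a covariate and 221 without edited embryos 2, 4 and 5, and stayed at 3 under RLE and TMMwsp scaling and the 10 CPM filter. Thinning left 0 (edgeR, 609 of 4238 tested genes at an unadjusted p under 0.05, no other tool run), and leaving out 1 embryo gave 1 to 652, with 58, 652 and 32 without edited embryos 1, 2 and 3, and 1 without edited embryo 5 or wild-type embryo 1, 2, 3, 5, 6 or 7. The 652 calls without edited embryo 2 became 1904, 3339 and 1348 under scaling to ACTB, GAPDH and the geometric mean and 1559 with DESeq2, and 305 to 757 when 1 further embryo was left out, with 339 without edited embryo 4 and 328, 305, 369 and 316 without wild-type embryos 1, 3, 5 and 7.

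The log2 fold change of ACTB was -0.14 under scaling to GAPDH (-0.21 without edited embryo 2). It passed the threshold with DESeq2 at 0.46 (0.51 without edited embryo 2) and voom at 0.40, and ranged from 0.33 to 0.51 with 1 embryo left out (0.40 to 0.57 with 1 further). That of GAPDH passed with DESeq2 at 0.68 and voom at 0.65 and ranged from 0.43 to 0.76. Without edited embryo 2 it missed the threshold under library size at 0.51, ACTB at 0.27 and geometric mean scaling at 0.35, and ranged from 0.53 to 0.87. That of YWHAZ was 0.25 with the covariate and ranged from -0.33 to -0.04. Without edited embryo 2 it passed under scaling to ACTB at -0.52 and GAPDH at -0.72, and ranged from -0.077 to 0.010, positive without edited embryo 5.

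With 1 embryo left out, differences in log2 ratio ranged from 0.53 to 0.92 for ACTB to YWHAZ, 0.77 to 1.13 for GAPDH to YWHAZ (exact permutation p at most 0.00303 and 0.00606) and -0.28 to -0.03 for ACTB to GAPDH. Without edited embryos 2, 4 and 5 the first 2 were 0.31 and 0.54 and missed the threshold (exact permutation p = 0.0556, where 0.0278 was possible). Spread differences ranged from 0.14 to 0.26 for ACTB, 0.08 to 0.36 for GAPDH and -0.054 to 0.71 for YWHAZ, negative without edited embryo 2. Without edited embryos 2, 4 and 5 they were -0.019 for ACTB, 0.015 for GAPDH and -0.12 for YWHAZ. With thinning, spread differences were 0.16, 0.13 and 0.52 (exact permutation p = 0.199, 0.746 and 0.221). Thinned differences in log2 ratio were 0.65 for ACTB to YWHAZ and 0.86 for GAPDH to YWHAZ (exact permutation p = 0.0101 and 0.00126). That of ACTB to GAPDH was -0.20 (exact permutation p = 0.299). Depth limits GAPDH and YWHAZ most in edited embryo 2, where 34 and 30 reads were counted.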
